A study of Arabidopsis thaliana with 9 samples.

Results

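The 10 Arabidopsis thaliana genes described here carry sulfur from cysteine synthesis to the storage of metal chelates in the vacuole. They were chosen by identifier from a table of 26973 genes, and all 10 were found in it: OASA1, OASB, OASC, SERAT2;1, SERAT2;2, GSH1, GSH2, PCS1, ABCC1 and ABCC2. RNA-seq compared seedlings of wild type with those of OXmiR400, a line named for miR400 overexpression, and OXrPPR1, a line named for overexpression of a PPR1 form, in 3 libraries per genotype, all with Colombia (spelled so) in their titles. Seedlings of all 9 libraries, wild type included, had been exposed to 100 µM cadmium for 6 h, so every difference below is one between genotypes under cadmium. Seedling age, transgene promoters and the number of independent lines or cultures are not stated in the labels. P-values therefore measure the spread between these libraries, which may be technical.

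Plants make cysteine in a pair of steps. Serine acetyltransferases (SERAT genes) make O-acetylserine, and O-acetylserine (thiol) lyases (OAS-TL, the OAS genes) replace its acetyl group with sulfide; both kinds of enzyme exist in the cytosol, the plastid and the mitochondrion. GSH1 joins cysteine to glutamate, GSH2 adds glycine to give the tripeptide glutathione, and phytochelatin synthase PCS1, which is active in the presence of metals such as cadmium, builds chains of glutathione units that bind the metal. ABCC1 and ABCC2 are pumps of the vacuolar membrane that carry phytochelatins and their metal complexes into the vacuole. Arabidopsis mutants with lowered GSH1 activity or without PCS1 activity are known for their sensitivity to cadmium.

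OXmiR400 is named for miR400, whose mature form was not measured here. The sequence of the mature miR400 is shown first. Below it are its best complementary stretches in transcripts of the known target PPR1 and of the pathway gene with the most paired bases. The miRNA has its seed (bases 2 to 8) in capitals, and in the transcripts capitals mark bases that can pair with it by Watson-Crick rules. All were read from TAIR10.1 (RefSeq), where the miRNA lies at chr1:11785947-11785967 on the plus strand.
miR400: uAUGAGAGuauuauaagucac
PPR1: GTGACTTATAATACTCTCATA
ABCC2: GTGACgTATcActCTCTCtTt

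The best stretch of PPR1 paired at 21 of 21 bases, and that of ABCC2 at 15, with a base of the seed unpaired. Pairing of 15 bases or more was found in 3.05% of 24200 protein-coding genes searched. The best stretches of OASB, GSH1, GSH2 and ABCC1 paired at 13 bases, which was the median over all genes, and those of OASA1, OASC, SERAT2;1, SERAT2;2 and PCS1 at 12. These counts describe letters, without gaps or G:U pairs, and do not mark a site.

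Levels are FPKM, which are scaled to exon length and library size, so that genes can be compared per length. Library depth, estimated from the spacing of low values with 4 steps taken as 1 unit, ranged from 12664900 to 21101500 units (reads or fragments). The genes carried 614 to 5834 units in each library, which gives a counting error of 1.62% to 4.03% of the level in the library with the fewest units. The spread between libraries of a genotype was wider, with a coefficient of variation pooled over genotypes from 7.04% for OASB to 21.9% for GSH1. The MIR400 precursor locus averaged 755 FPKM in OXmiR400 and 0.255 FPKM in wild type, while PPR1 averaged 24.0 FPKM in OXrPPR1 against 2.37 FPKM in wild type, in the direction of the labels. All 13 root markers and all 11 shoot markers were above 0 in every library, as for whole seedlings. Across genes on the log2 scale, 3 libraries correlated better with a library of another genotype than with any of their own, where genes are not independent replicates. Wild type replicate 2 and OXrPPR1 replicate 1 had r = 0.9745 with each other (at most 0.9698 and 0.9718 within genotype), and OXrPPR1 replicate 3 had r = 0.9705 with wild type replicate 3 (at most 0.9649 within genotype).

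In wild type the order of mean levels ran from OASA1, GSH1 and OASB over GSH2, SERAT2;1, SERAT2;2, PCS1 and ABCC1 to OASC and ABCC2. The libraries of neighbours in this order overlapped for GSH2 and SERAT2;1, for SERAT2;2 and PCS1, and for PCS1 and ABCC1, and were separate for the other neighbours. Over the 9 libraries OASA1 averaged 172 FPKM, above 97.5% of tested genes, and ABCC2 9.80 FPKM, above 46.8%. By mean, OASA1 and GSH1 ranked first and second in all 3 genotypes, and ABCC2 last. In both lines, however, the libraries of GSH1 and OASB overlapped.

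**Figure D1:**
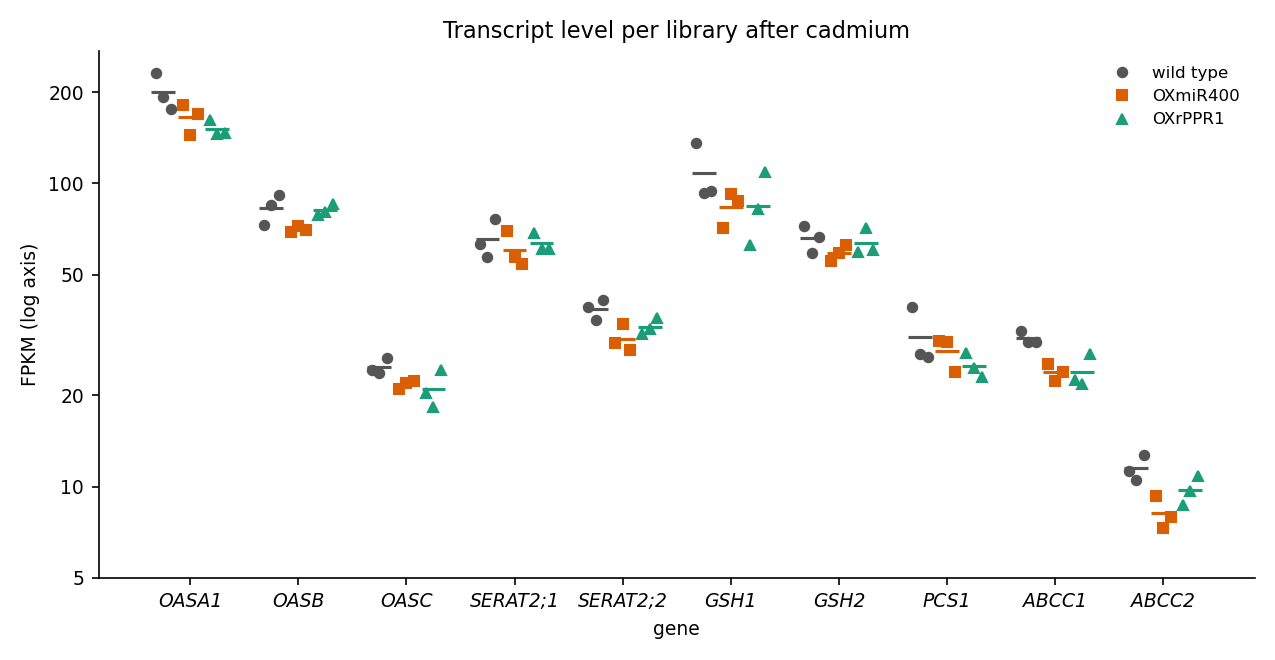
Level of each gene (x axis) in FPKM on a log axis (y axis). Each point is 1 library, and bars mark the mean of 3 libraries. OASA1 is the highest gene and ABCC2 the lowest in each genotype, and most points of both lines lie at or below those of wild type.

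No gene of the pathway differed between genotypes past the threshold. Differences were fitted in limma to log2(FPKM + 1) over 19955 genes and called at an adjusted p under 0.05 (Benjamini-Hochberg). Of the 10 genes, 0 were called in OXmiR400 against wild type (0.571% of all tested genes were), 0 in OXrPPR1 against wild type (0.0651%) and 0 between the lines (0.0651%). At unadjusted p under 0.05, 3 of 10 were lower in OXmiR400 than in wild type (ABCC2, ABCC1 and SERAT2;2; 9.19% of tested genes), 2 of 10 were lower in OXrPPR1 (ABCC1 and OASA1; 5.7%), and 0 differed between the lines (7.41%).

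All 10 log2 fold changes against wild type were below 0 in OXmiR400, from -0.45 to -0.12, with a median of -0.25. Over all tested genes 53.1% were below 0 and the median was -0.02. In OXrPPR1 all 10 were also below 0, from -0.39 to -0.02, with a median of -0.23, where 54% of tested genes were below 0. Both comparisons use the same 3 wild type libraries. In OXrPPR1 the count was 8 of 10 when libraries were centred on their medians or when wild type replicate 3 was left out, and 9 without wild type replicate 1 or OXrPPR1 replicate 1. In OXmiR400 it was 9 without wild type replicate 1. Without wild type replicate 2 and OXrPPR1 replicate 3 together, 10 were below 0 in each line, with medians of -0.26 and -0.33, and 0 were called. As a median over the 10 genes, these libraries stood at 104% and 105% of the mean over 9 libraries. They were the lowest of wild type and the highest of OXrPPR1, so leaving them out favours values below 0. Between the lines 5 of 10 were below 0 (49.6% of tested genes), with a median of -0.04.

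Each interval covers 1 gene on its own, as a fold of FPKM + 1, and rests on the spread between these libraries. The intervals were not adjusted for the number of genes. Against wild type the lowest end of a 95% interval was 0.564-fold in OXmiR400 and 0.559-fold in OXrPPR1, in both cases for GSH1. The highest end was 1.16-fold in OXmiR400 (PCS1) and 1.198-fold in OXrPPR1 (SERAT2;1). Intervals between the lines reached from 0.701-fold (ABCC2) to 1.42-fold (PCS1).

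**Figure D2:**
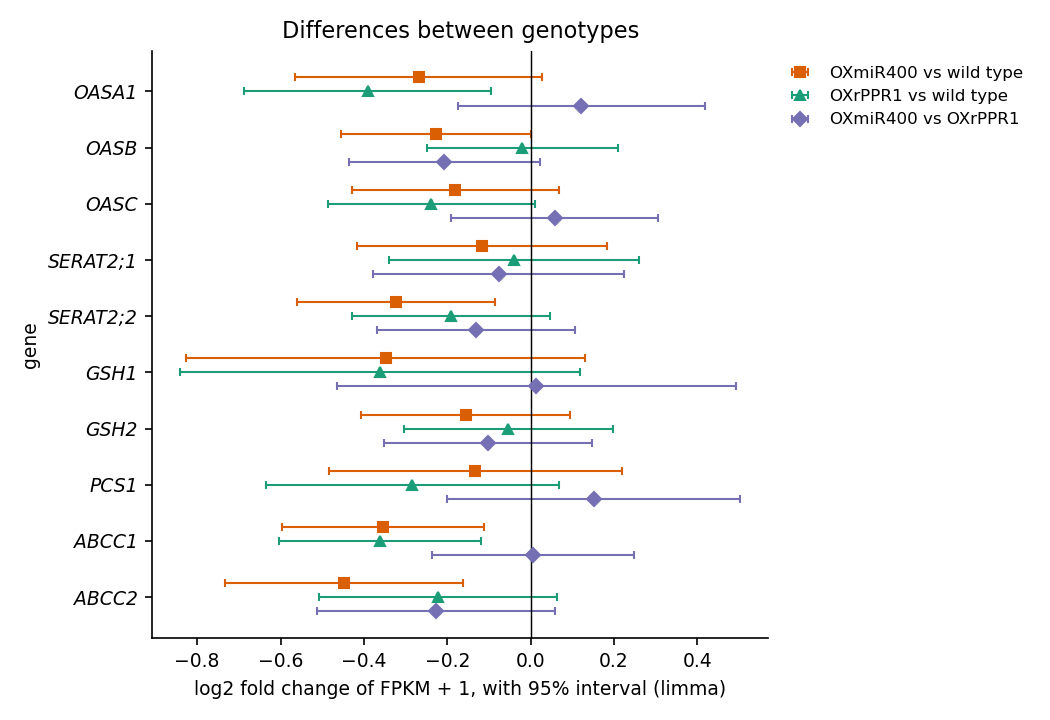
Log2 fold change of FPKM + 1 (x axis) for each gene (y axis) in the 3 comparisons, with 95% intervals from limma over 9 libraries. Points for both lines against wild type lie left of 0, most of their intervals cross 0, and no gene was called.

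The summed level of root markers was also below wild type in 1 line. Summed over the 13 root markers, levels were 121 to 149 FPKM in wild type, 84.0 to 90.6 FPKM in OXmiR400 and 96.7 to 168 FPKM in OXrPPR1. No root marker was called, 10 of 13 had a log2 fold change below 0 in OXmiR400 and 6 of 13 in OXrPPR1, and none was at 0 FPKM in any library. The 11 shoot markers summed to 16253 to 18967 FPKM in wild type, 19936 to 24070 FPKM in OXmiR400 and 17094 to 20981 FPKM in OXrPPR1. No shoot marker was called, and all 11 had a log2 fold change above 0 in OXmiR400 but 7 of 11 in OXrPPR1. Of all tested genes, 53.1% were below 0 in OXmiR400 and 54% in OXrPPR1. The part of these markers in the values of the pathway was not tested, and in whole seedlings fewer cells of a type and less RNA per cell cannot be told apart.

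Of OASA1, OASB and OASC, the cytosolic OASA1 was the most abundant. OASA1 (AT4G14880, chromosome 4, 8517960 to 8520596, minus strand) had 231, 192 and 176 FPKM in the wild type libraries, 182, 145 and 169 FPKM in OXmiR400, and 162, 145 and 147 FPKM in OXrPPR1. The 3 OXrPPR1 libraries lay below all wild type libraries, while 1 of 3 OXmiR400 libraries lay within the wild type range. The OXrPPR1 mean was 0.757 of the wild type mean, with a log2 fold change of -0.39 ± 0.13 (SE) that was not called (adjusted p = 0.358 in limma). The OXmiR400 mean was 0.828 of the wild type mean (log2 -0.27 ± 0.13, SE, adjusted p = 0.358 in limma). Between the lines OASA1 differed by 0.12 on the log2 scale, with a 95% interval from -0.17 to 0.42.

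The plastid form OASB (AT2G43750, chromosome 2, 18129435 to 18132638, minus strand) had 73.2, 84.9 and 91.4 FPKM in the wild type libraries, 69.2, 72.5 and 70.3 FPKM in OXmiR400, and 78.9, 80.6 and 85.8 FPKM in OXrPPR1. The OXmiR400 libraries lay below all libraries of both other genotypes, and those of OXrPPR1 lay within the wild type range. Wild type replicate 1, where OASA1 was highest, had the lowest OASB of the wild type libraries. The log2 fold change in OXmiR400 was -0.23 ± 0.10 against wild type and -0.21 ± 0.10 against OXrPPR1 (SE, adjusted p = 0.318 and 0.721 in limma). In OXrPPR1 against wild type it was -0.02, with a 95% interval from -0.25 to 0.21. OASB overlaps AT2G43745 and AT2G43760, which averaged 0.395 and 21.6 FPKM, and reads in the overlap may be shared.

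The mitochondrial form OASC (AT3G59760, chromosome 3, 22071948 to 22075453, minus strand) was the lowest of the 3. It had 24.2, 23.7 and 26.5 FPKM in the wild type libraries, 21.0, 21.9 and 22.3 FPKM in OXmiR400, and 20.4, 18.3 and 24.3 FPKM in OXrPPR1. The OXmiR400 libraries lay below the wild type libraries, and OXrPPR1 replicate 3 lay within the wild type range. The log2 fold changes were -0.18 ± 0.11 and -0.24 ± 0.11 (SE, adjusted p = 0.470 and 0.494 in limma).

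The shares of the 3 forms were described without a test. OASA1 took 64.7% ± 5.26 of their summed FPKM in wild type, 64.0% ± 3.21 in OXmiR400 and 59.5% ± 2.44 in OXrPPR1 (SD, n = 3), with libraries that overlapped. OASB took 27.2% ± 4.49, 27.5% ± 2.51 and 32.2% ± 1.74 in the same order, and the ratio of OASA1 to OASB was 2.45 ± 0.633, 2.34 ± 0.320 and 1.85 ± 0.177 (SD, n = 3). OASC took 7.38% to 9.48% in every library. The sum itself was 294 to 328 FPKM in wild type, 239 to 272 FPKM in OXmiR400 and 244 to 261 FPKM in OXrPPR1. The sums of both lines lay below those of wild type, which was not tested or counted for other sums. OASA1 made 57.1% to 70.3% of the sum in each library. By gene, OASA1 overlapped wild type in OXmiR400, and OASB and OASC did so in OXrPPR1. Coding sequences of OASB and OASC were 85.4% identical, with a longest shared run of 39 bases, and OASA1 was 69.7% and 70.6% identical to them. The labels state neither the read length nor how shared reads were handled.

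The 2 serine acetyltransferase genes act in different compartments, and the difference between their fold changes was not tested. SERAT2;1 (AT1G55920, chromosome 1, 20912116 to 20913565, plus strand), the plastid form, had 63.1, 57.2 and 76.5 FPKM in the wild type libraries, 69.5, 57.1 and 54.3 FPKM in OXmiR400, and 68.5, 61.0 and 60.7 FPKM in OXrPPR1. All 3 genotypes overlapped. Its log2 fold changes against wild type were -0.12 ± 0.13 in OXmiR400 and -0.04 ± 0.13 in OXrPPR1 (SE, adjusted p = 0.719 and 0.945 in limma). The mitochondrial SERAT2;2 (AT3G13110, chromosome 3, 4214399 to 4216302, minus strand) had 39.0, 35.5 and 41.4 FPKM in the wild type libraries, 29.7, 34.3 and 28.2 FPKM in OXmiR400, and 32.0, 33.0 and 36.1 FPKM in OXrPPR1. The OXmiR400 libraries lay below the wild type libraries, and OXrPPR1 replicate 3 lay within the wild type range. The OXmiR400 mean was 0.796 of the wild type mean, a log2 fold change of -0.32 ± 0.11 (SE) with unadjusted p = 0.0130 and adjusted p = 0.187 in limma. In OXrPPR1 it was -0.19 ± 0.11 (SE, adjusted p = 0.570 in limma).

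SERAT2;1 exceeded SERAT2;2 by 1.61-fold to 2.34-fold in every library. The ratio averaged 1.69 ± 0.136 in wild type, 1.98 ± 0.339 in OXmiR400 and 1.89 ± 0.233 in OXrPPR1 (SD, n = 3), with libraries that overlapped. Both genes together made 50.2% to 54.2% of the summed FPKM of the 5 SERAT genes in every library. Their coding sequences were 77.0% identical.

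GSH1 (AT4G23100, chromosome 4, 12102135 to 12107695, minus strand), which encodes glutamate-cysteine ligase, the rate-limiting enzyme of glutathione synthesis, had the highest coefficient of variation pooled over genotypes, although within OXmiR400 that of SERAT2;1 was higher (13.43% against 13.05%). It had 136, 93.1 and 94.4 FPKM in the wild type libraries, 71.4, 92.2 and 87.6 FPKM in OXmiR400, and 62.7, 82.2 and 109 FPKM in OXrPPR1. The OXmiR400 libraries lay below the wild type libraries, and OXrPPR1 held the lowest library of all and 1 within the wild type range. The log2 fold changes were -0.35 ± 0.21 and -0.36 ± 0.21 (SE, adjusted p = 0.468 and 0.593 in limma). Without wild type replicate 1 they were -0.17 and -0.18. Without OXrPPR1 replicate 3 and wild type replicate 2 the value in OXrPPR1 was -0.65 (adjusted p = 0.198 in limma). That setting leaves out the highest OXrPPR1 and the lowest wild type library of this gene.

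GSH2 (AT5G27380, chromosome 5, 9667912 to 9671015, minus strand), glutathione synthetase, was steadier. It had 72.2, 59.1 and 66.8 FPKM in the wild type libraries, 55.6, 58.9 and 62.5 FPKM in OXmiR400, and 59.5, 71.1 and 60.2 FPKM in OXrPPR1, and the 3 genotypes overlapped. The log2 fold changes were -0.16 ± 0.11 and -0.05 ± 0.11 (SE, adjusted p = 0.538 and 0.901 in limma). The level of GSH1 exceeded that of GSH2 in every library, by 1.05-fold to 1.89-fold. The ratio was 1.63 ± 0.240 in wild type, 1.42 ± 0.141 in OXmiR400 and 1.34 ± 0.409 in OXrPPR1 (SD, n = 3), and its extremes were OXrPPR1 replicate 1 and wild type replicate 1.

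PCS1 (AT5G44070, chromosome 5, 17734706 to 17737859, plus strand) is the phytochelatin synthase gene. It had 39.2, 27.4 and 26.8 FPKM in the wild type libraries, 30.2, 30.1 and 23.9 FPKM in OXmiR400, and 27.6, 24.7 and 23.0 FPKM in OXrPPR1. Wild type replicate 1 stood above the other 8 libraries, which overlapped between genotypes. The log2 fold changes were -0.13 ± 0.16 in OXmiR400 and -0.28 ± 0.16 in OXrPPR1 (SE, adjusted p = 0.728 and 0.569 in limma), and without wild type replicate 1 they were 0.04 and -0.11. The second phytochelatin synthase gene, PCS2, lay at 0.152 to 0.730 FPKM and below the expression filter of 1 FPKM in all genotypes.

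The vacuolar pumps had the smallest p-values of the pathway in OXmiR400 against wild type, and ABCC1 had the smallest in OXrPPR1 against wild type. ABCC1 (AT1G30400, chromosome 1, 10727317 to 10738092, plus strand) had 32.6, 29.96 and 29.91 FPKM in the wild type libraries, 25.5, 22.3 and 23.9 FPKM in OXmiR400, and 22.4, 21.8 and 27.5 FPKM in OXrPPR1. All 6 libraries of the lines lay below the 3 of wild type. The means were 0.775 of the wild type mean in each line, with log2 fold changes of -0.35 ± 0.11 and -0.36 ± 0.11 (SE). Unadjusted p was 0.00857 and 0.00777, and adjusted p was 0.156 and 0.294 in limma. Between the lines the difference was 0.01, with a 95% interval from -0.24 to 0.25.

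ABCC2 (AT2G34660, chromosome 2, 14602470 to 14612565, plus strand) had 11.3, 10.5 and 12.7 FPKM in the wild type libraries, 9.29, 7.28 and 7.96 FPKM in OXmiR400, and 8.67, 9.66 and 10.9 FPKM in OXrPPR1. The OXmiR400 libraries lay below the wild type libraries, and OXrPPR1 replicate 3 lay within the wild type range. The OXmiR400 mean was 0.711 of the wild type mean, a log2 fold change of -0.45 ± 0.13 (SE) with unadjusted p = 0.00580 and adjusted p = 0.136 in limma. Of all tested genes 7.68% had a lower log2 fold change in that comparison. In OXrPPR1 the value was -0.22 ± 0.13 (SE, adjusted p = 0.583 in limma), and the difference between the lines was -0.23, with a 95% interval from -0.51 to 0.06.

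ABCC1 exceeded ABCC2 in every library. The ratio was 2.70 ± 0.306 in wild type, 2.94 ± 0.175 in OXmiR400 and 2.46 ± 0.176 in OXrPPR1 (SD, n = 3). The OXmiR400 libraries, at 2.74 to 3.07, all exceeded the OXrPPR1 libraries, at 2.26 to 2.58. This ratio was not tested, and neither gene was called between the lines. The pair was also taken as a share of the summed FPKM of 15 ABCC genes. It made 26.0% to 29.7% in wild type, 22.7% to 23.8% in OXmiR400 and 23.3% to 26.3% in OXrPPR1. This share was not tested either, and its sum includes ABCC3, which spanned 17.1 to 42.8 FPKM in wild type. Coding sequences of ABCC1 and ABCC2 were 85.8% identical with a longest shared run of 35 bases, and ABCC1 was 69.0% identical to its neighbour ABCC12. How far the counting split reads between them is not known.

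**Figure D3:**
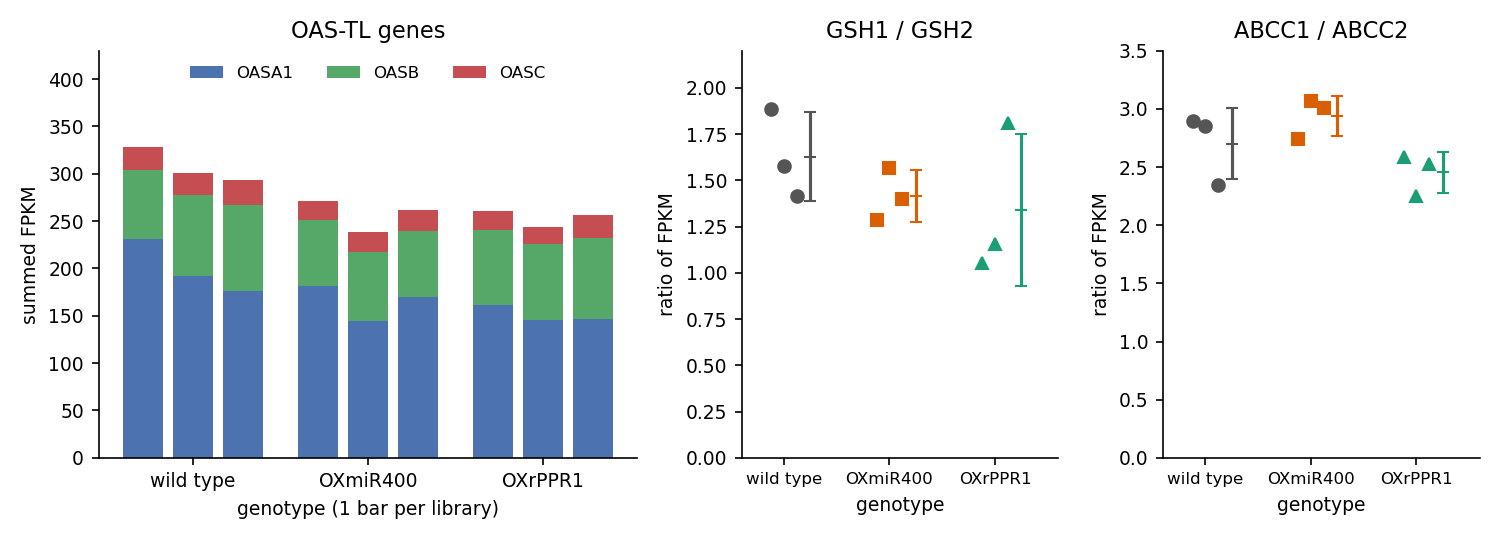
Left, summed FPKM (y axis) of OASA1, OASB and OASC with 1 stacked bar per library; middle and right, ratio of FPKM of GSH1 to GSH2 and of ABCC1 to ABCC2 per library (points), with mean and SD of 3 libraries beside them. The bars of both lines, at most 272 FPKM, end below those of wild type, and OASA1 makes most of each bar. The GSH1 to GSH2 ratio is widest in OXrPPR1, from 1.05 to 1.81. Sums and ratios were not tested.

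Groups that did not overlap were counted over the pathway. In OXmiR400, 6 of 10 genes (OASB, OASC, SERAT2;2, GSH1, ABCC1 and ABCC2) had all 3 libraries below those of wild type, which held for 13.5% of tested genes. In OXrPPR1 this held for OASA1 and ABCC1, 2 of 10, against 8.33% of tested genes. Between the lines it held for OASB, against 7.28% of tested genes in that direction. No gene had all libraries of a line above those of wild type.

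The highest library of each gene was wild type replicate 1 for 5 genes (OASA1, GSH1, GSH2, PCS1 and ABCC1) and wild type replicate 3 for the other 5. In wild type replicate 1, GSH1 stood at 148%, PCS1 at 140% and OASA1 at 134% of their means over 9 libraries, while OASB stood at 93.2%. In wild type replicate 3, ABCC2, SERAT2;1 and SERAT2;2 were at 130%, 121.3% and 120.5%. Wild type replicate 2 was the highest library for 0 genes. Among OXrPPR1 libraries replicate 3 was above the mean over 9 libraries for 6 of 10 genes and replicates 1 and 2 for 2 each, and in OXmiR400 these counts were 3, 2 and 0.

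**Figure D4:**
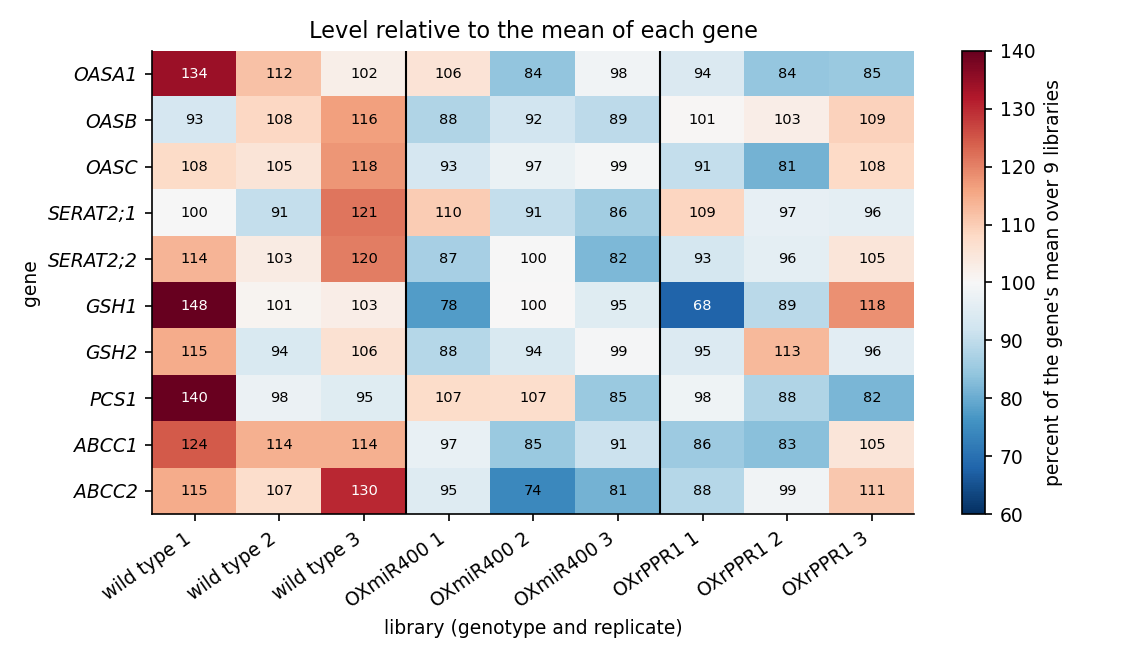
Level of each gene (rows) in each library (columns) as a percent of the mean of the gene over 9 libraries, by colour and number, with lines between genotypes. The highest values lie in wild type replicates 1 and 3, up to 148% for GSH1, and the lowest is 68% for GSH1 in OXrPPR1 replicate 1.

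The related genes were not called either. Of 5 further OAS-TL family genes 0 were called in either line. CYSC1, a mitochondrial cyanoalanine synthase gene, was the most abundant at 393 ± 33.6, 412 ± 33.8 and 399 ± 58.9 FPKM (SD, n = 3; wild type, OXmiR400, OXrPPR1, the order kept below), with log2 fold changes of 0.07 and 0.02 (adjusted p = 0.840 and 0.979 in limma). CYSD2 measured 62.8 ± 7.87, 53.3 ± 7.29 and 58.0 ± 4.66 FPKM, and DES1, a cysteine desulfhydrase gene, 1.22 ± 0.373, 0.912 ± 0.369 and 0.577 ± 0.0822 FPKM (SD, n = 3). The adjusted p was 0.428 for CYSD2 in OXmiR400 and 0.437 for DES1 in OXrPPR1 (limma). Of 3 further SERAT genes 0 were called. The cytosolic SERAT1;1 measured 66.0 ± 1.86, 64.7 ± 2.63 and 65.7 ± 1.04 FPKM (SD, n = 3), and its interval in OXmiR400 reached from -0.21 to 0.16 on the log2 scale. SERAT3;1 had a log2 fold change of -0.35 in OXmiR400 (adjusted p = 0.300 in limma), and SERAT3;2 of 0.20 in OXrPPR1 (adjusted p = 0.875 in limma).

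Of 12 genes of glutathione recycling, breakdown and transport, 11 were tested and 0 called. In OXmiR400 against wild type 6 were below 0 (53.1% of all tested genes) and the median was -0.16. In OXrPPR1 7 were below 0 (54%) with a median of -0.08. GGCT2;1 (AT5G26220), a gamma-glutamyl cyclotransferase gene whose product breaks down glutathione, had 34.5, 15.1 and 68.7 FPKM in the wild type libraries, 14.0, 7.66 and 8.96 FPKM in OXmiR400, and 18.3, 30.6 and 34.6 FPKM in OXrPPR1. The OXmiR400 libraries lay below all others, but wild type itself spanned 15.1 to 68.7 FPKM. The log2 fold change was -1.65 ± 0.50 (SE, adjusted p = 0.175 in limma), with a 95% interval from -2.80 to -0.49. GGCT2;2 was the most abundant of the group, at 129 ± 32.6, 141 ± 14.8 and 161 ± 41.1 FPKM, and OXP1, an oxoprolinase gene, measured 19.8 ± 0.447, 16.3 ± 1.94 and 17.1 ± 0.842 FPKM (SD, n = 3, adjusted p = 0.240 and 0.528 in limma).

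Of 13 further ABCC genes 10 were tested and 0 called. In each line 8 were below 0, with medians of -0.16 in OXmiR400 (53.1% of all tested genes below 0) and -0.14 in OXrPPR1 (54%). ABCC3 was the most abundant of them, at 29.5 ± 12.9, 34.7 ± 5.40 and 32.7 ± 11.9 FPKM (SD, n = 3). ABCC4 had a log2 fold change of -0.33 in OXmiR400 and ABCC14 of -0.35 in OXrPPR1 (adjusted p = 0.329 and 0.406 in limma).

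Upstream, of 8 sulfate reduction genes 0 were called. In OXmiR400 7 were below 0 (53.1% of all tested genes) with a median of -0.53, and in OXrPPR1 6 (54%) with a median of -0.20. Values in OXmiR400 ran from -1.06 (APR1, adjusted p = 0.117 in limma) to 0.05 (APS2). APS4, an ATP sulfurylase gene, was named for the smallest p of the group in both lines. It had 68.9, 72.6 and 77.5 FPKM in the wild type libraries, 44.3, 49.2 and 46.7 FPKM in OXmiR400, and 58.7, 40.8 and 52.8 FPKM in OXrPPR1. All libraries of both lines lay below those of wild type. This held for 4 of 8 genes in OXmiR400 (13.5% of all tested genes) and 1 of 8 in OXrPPR1 (8.33%). The log2 fold changes of APS4 were -0.63 ± 0.13 and -0.53 ± 0.13 (SE, adjusted p = 0.0688 and 0.198 in limma). APS1, the most abundant of them, measured 166 ± 55.2, 113 ± 17.3 and 166 ± 29.9 FPKM (SD, n = 3, adjusted p = 0.334 and 0.974 in limma).

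**Figure D5:**
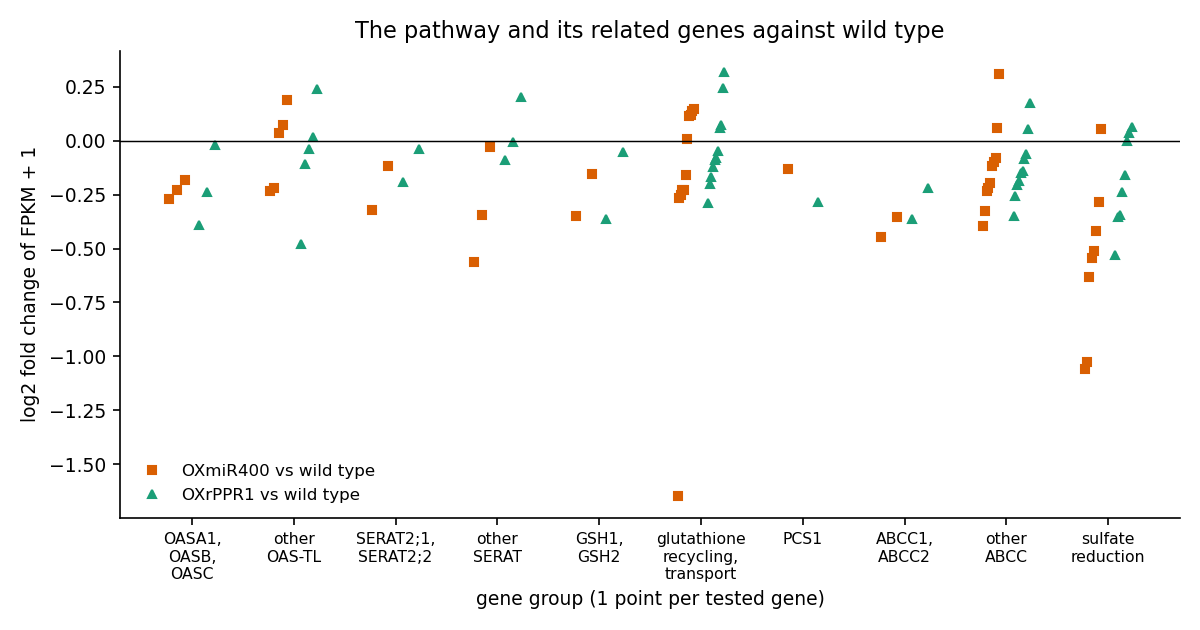
Log2 fold change of FPKM + 1 against wild type (y axis) by gene group (x axis), 1 point per tested gene and line. The 10 pathway genes lie between -0.45 and -0.02, and the widest ranges are those of the glutathione recycling genes and the sulfate reduction genes in OXmiR400, the former reaching -1.65 (GGCT2;1).

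The promoters of the pathway genes were searched for GAGAC on both strands, the core of the sulfur-responsive element known from sulfate transporter genes of Arabidopsis. Windows reached from 250 bases before to 50 bases after the annotated gene start. Of 10 promoters 3 held it (OASB, SERAT2;2 and PCS1), and so did 32.8% of 24199 promoters of protein-coding genes, a similar share. The match of PCS1, 160 bases before the start, is shown with 30 bases on each side (chr5:17734516-17734580, plus strand, TAIR10.1), with the motif, here read as GTCTC, in capitals.
PCS1: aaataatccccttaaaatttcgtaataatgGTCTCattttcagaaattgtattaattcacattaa
The match is a description of letters. The match of SERAT2;2 began at base 4 after the annotated gene start. OASA1, ABCC1 and ABCC2, the other genes with unadjusted p under 0.05 in at least 1 line, held none in this window. These genes were picked by p-values from these data and none was called. A link between the letters and the levels was not tested.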

How the data were processed

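RNA from 9 seedling samples was sequenced after library preparation with a SMARTer mRNA kit, according to the labels' protocols. The series has 3 deposited tables of identical content, of which 1 was used. Its values were taken as FPKM computed by the authors. This unit was inferred, since deposited values times exon length in kilobases add up to 992900 to 998014 per library. The submitters' processing notes name GRCm38 and mm10, which are mouse builds, but 26492 of 26513 genes matched to TAIR10.1 (RefSeq) share its start and end. The labels state no aligner, counter or strand handling. In 99.5% to 99.8% of low values, FPKM times exon length fell on steps (tolerance 0.05). A unit was taken as 4 steps, which was not tested, and 48.5% to 54.1% of low values fell on whole units. The depths and counting errors rest on this choice. Whole counts could not be recovered, which ruled a count test out.

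The 19955 genes whose mean reached 1 FPKM in any genotype were fitted as log2(FPKM + 1) in limma 3.58.1 (R 4.3.3). A single model held all 9 libraries, with eBayes (trend and robust) and p-values adjusted by Benjamini-Hochberg over all tested genes; the script was tested on simulated data. This scale understates changes of low genes. Named related genes are, per group, the most abundant and the one with the smallest p in each line. Coding sequences were aligned with biopython 1.88. The genes and lists were chosen with earlier results of these data known. Counting errors cover counting only.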

Additional observations from a re-analysis of the deposited data

How the results depend on the processing

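No pathway gene was called in any of the 19 alternatives in the 3 comparisons, which gave 190 values each. The lowest adjusted p in limma was 0.0975 for ABCC1 in OXmiR400 against wild type (without OXrPPR1 replicate 3). In OXrPPR1 against wild type it was 0.122 for ABCC1 (without wild type replicate 2 and OXrPPR1 replicate 3). Between the lines it was 0.616 for ABCC2 (without OXrPPR1 replicate 1). The sign held in all alternatives for 9, 7 and 7 of 10 genes in OXmiR400 against wild type, OXrPPR1 against wild type and between the lines. Median centring gave 0.0207 for OASB and 0.000101 for SERAT2;1 in OXrPPR1 against wild type and -0.000906 for ABCC1 between the lines. Leaving out libraries gave -0.23 to 0.0401 for PCS1 in OXmiR400 against wild type; -0.11 to 0.0510 for OASB, -0.13 to 0.0748 for SERAT2;1 and -0.13 to 0.0125 for GSH2 in OXrPPR1 against wild type; and -0.0332 to 0.16 for OASC, -0.18 to 0.21 for GSH1 and -0.0534 to 0.11 for ABCC1 between the lines. The cause was not tested.

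Over all genes the calls in OXmiR400 against wild type, OXrPPR1 against wild type and between the lines were 114, 13 and 13. They were 66, 8 and 10 with no filter, where more genes were tested, and 216, 39 and 24 with only the 6 libraries compared. Leaving out 1 library gave 8 to 194, 4 to 44 and 7 to 18, and leaving out wild type replicate 2 and OXrPPR1 replicate 3 together gave 373, 37 and 34. With the replicate number as a block they were 92, 10 and 7. Deviations of same-numbered libraries correlated at -0.246 to 0.133, so the numbers were not taken as pairs, and the block called no pathway gene.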
